A study of Mus musculus with 20 samples.

Results

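The genes described here encode the proteins of the cytosolic ribosome. They were all protein-coding rows of the developmental table whose symbol begins Rpl or Rps followed by a number, plus Rplp0, Rplp1, Rplp2 and Rpsa, without the Rps6k kinases and with at least 200 counts summed over the kept wells. Of 37994 gene rows, 84 carried such a symbol and 79 passed the count minimum, 48 of the large and 31 of the small subunit. The lowest gene inside the minimum was Rps27 with 200.005 counts, followed by Rps27a with 214 counts. The 5 genes outside were Rps6 with 147 counts, Rpl29 with 122, Rpl3l with 11, Rpl39l with 7 and Rpl10l with 5.

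Single cells of the mouse habenula, a paired structure of the dorsal diencephalon with a medial and a lateral part, were sequenced with Cel-seq2, in which each transcript carries a unique molecular identifier (UMI) and is primed from its poly-A tail. A developmental series held 15 plates of the Brn3a-tauLacZ line, which carries a tau-lacZ reporter at the gene for Brn3a, now Pou4f1, and whose zygosity the labels do not give. The embryonic stages were E11, E13, E15 and E18, with 2 plates each, and E12, with a single one; P4, P7 and the adult also had 2 each. Another 5 plates, called the second set below, were of C57BL/6 mice at E18, with 2 from the left habenula, 2 from the right and 1 from both sides, the last titled E1 but given as E18 in its other labels. The plate was the replicate, and because the labels tie no plate to animals, p-values measure the spread between plates, which may be technical.

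Kept wells numbered 3729 of 5756 in the series and 1082 of 1920 in the second set, and a series plate held between 758697 and 7760370 counts outside the spike-in controls. Some plates stood apart. The first E18 plate kept 267 wells, of which 2 were neuron-like and 175 fell in a cluster led by Ttr that was left unnamed, and its summed neuron markers were the lowest of the series, at 3469 CPM (counts scaled to the same total on each plate) against 4926 to 15934 on the others. The first adult plate kept 56 wells with a median mitochondrial share of 11.9%. The 27 neuron-like wells on the second E13 plate all belonged to a cluster of 28 wells that took 96.4% of its wells from that plate.

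A ribosome joins a small subunit, which reads the messenger RNA, to a large subunit, which forms the peptide bond. The genes for its proteins are among the most abundantly transcribed in dividing cells, and their messages typically begin with a run of pyrimidines at the first transcribed base, through which growth signals set their translation. Most also have many processed pseudogene copies, so a short read from one of these messages can match several places in the genome.

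In the annotation, 78 of the 79 genes had at least 1 such copy, the median was 10 copies, and Rpl7a had the most, with 93. An exon of another gene overlapped 23 of them. RefSeq start sites were listed for 60 of the 79 on build GRCm38.p6. A run of at least 5 bases that were each C or T, read on the coding strand from the first base, was present at a listed start of 15 of those 60 (25%) and of 5.28% of the 27025 genes in the table. Within the 30 bases from 10 before the start, 70% of the 60 and 50.5% of all genes held such a run. The 30-base windows below show genes with a run at the listed start (Rplp2, Rps15a, Rps27, Rpl15), the gene that moved opposite to most (Rpl5) and a paralog pair (Rpl22, Rpl22l1), with the longest run of at least 5 in capitals.
Rplp2: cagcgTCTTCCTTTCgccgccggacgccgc
Rps15a: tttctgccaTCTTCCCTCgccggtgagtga
Rps27: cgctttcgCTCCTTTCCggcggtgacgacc
Rpl15: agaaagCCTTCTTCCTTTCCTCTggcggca
Rpl5: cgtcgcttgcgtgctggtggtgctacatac
Rpl22: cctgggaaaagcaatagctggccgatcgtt
Rpl22l1: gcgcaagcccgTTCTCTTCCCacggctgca
They lie at chr7:141447641-141447670 (plus strand), chr7:118116128-118116157 (minus), chr3:90213629-90213658 (minus), chr14:18270967-18270996 (minus), chr5:107900518-107900547 (plus), chr4:152325716-152325745 (plus) and chr3:28805498-28805527 (plus), in that order. Rpl15 had the longest run shown, and no run of 5 lay in the windows of Rpl5 and Rpl22. The windows of Rps27 and Rpl22 cover the annotated gene start, and those of Rplp2, Rps15a, Rpl15, Rpl5 and Rpl22l1 do not. The Rpl5 window opens at 107900518, with the gene start at 107900502. The Rplp2 window opens at 141447641, with the gene start at 141447370. On the minus strand, the Rpl15 window begins at 18270996, with the gene start at 18271391. Among genes not shown, Rplp0, Rpsa, Rpl4, Rpl34, Rps23, Rps27l and Rpl39 had no such run at the listed start, and Rps24 had a run. Each of these fell from E18 to P4, and whether a run went with the change was not tested. In Rpl34 and Rps23 a run began shortly after the listed start. The windows of Rpsa, Rpl4, Rps23, Rpl39 and Rps24 do not cover the annotated gene start, so presence of a run depends on the start that was listed.

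The first question was what share of a plate's counts outside spike-ins, mitochondrial and unspliced ones included, came from these genes at each stage. The genes together gave 1.71% ± 0.0391 of counts at E11 (mean and SD of 2 plates), 2.97% ± 0.695 at E13, 2.25% ± 0.487 at E15 and 2.92% ± 0.676 at E18. After birth the share was 0.777% ± 0.0273 (P4), 0.702% ± 0.0163 (P7) and 0.729% ± 0.108 (adult). Every P4, P7 and adult plate lay below every embryonic plate, as plate sums in which most P4 and P7 wells were neuron-like. Astrocyte-like wells gave 1.86% on the first E18 plate (38 wells) and 1.89% on the second P4 plate (11 wells). They gave 0.354% on the second adult plate (27 wells). Vascular-like wells gave 4.72% on the second E13 plate, and 3.90% and 4.42% on the E18 plates. They gave 1.97% on the first P7 plate (16 wells) and 0.920% on the second adult plate. These classes were not tested. The single E12 plate gave 1.19% (95% Wilson interval 1.18% to 1.20%, for counting error only), below both E11 and both E13 plates. The left, right and both-sides plates at E18 gave 1.76% to 2.83%.

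**Figure D1:**
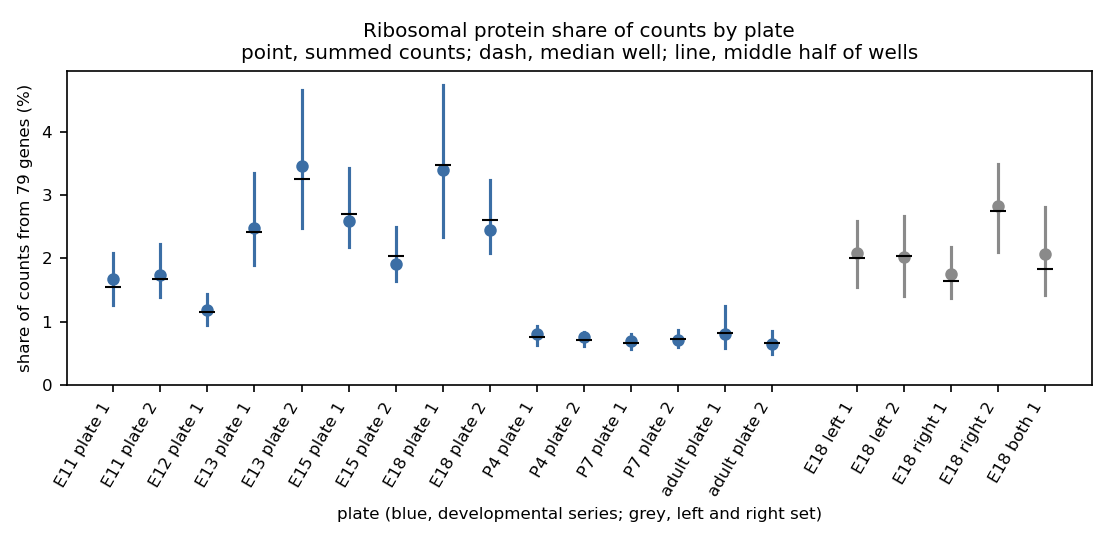
Share of each plate's counts that came from the 79 ribosomal protein genes (y axis, %), by plate (x axis). Points are summed counts, dashes the median well and lines the range from the lower to the upper quartile of wells; the 6 plates from P4 to the adult lie between 0.653% and 0.805%, under all others.

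The plate numbers in the labels moved with this share. The 8 series plates numbered 006 to 014 (E11, E13, E15 and E18) gave 1.68% to 3.47%, and the 7 numbered 015 to 022 (adult, P7, P4 and E12) gave 0.653% to 1.19%. Spike-in molecules per 1000 counts were 107 to 374 on the first of these sets of plates and 37.7 to 303 on the second. E18 and P4 therefore cannot be told apart from the plate numbers, and E12 is the embryonic plate that carries a late number. Of the 79 genes, 66 had a lower level at E12 than on both E11 and both E13 plates, against 23.5% of all genes with at least 200 counts.

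Depth moved with the share too: on 20 of 20 plates the wells below the median depth gave the higher share, by 1.08 to 1.60 times. Among neuron-like wells of 8000 to 16000 counts only, E11 plates gave 1.60% and 1.62%, the E12 plate 1.16%, the E13 plates 2.14% and 2.33%, followed by 2.26% and 1.90% at E15 and 2.44% on the second E18 plate. In the same depth range the P4 plates gave 0.802% and 0.752%, the P7 plates 0.715% and 0.795%, and the second adult plate 0.825%. In this range, chosen after seeing the data, each embryonic plate still lay above each later one, but median depth within it ran from 10574 to 14570 counts, so depth was narrowed and not matched.

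Between successive stages the genes were tested one by one on counts summed per plate. From E18 to P4, 67 of the 79 genes fell and 1 rose (edgeR, adjusted p under 0.05), where 10.4% of the 17453 genes tested fell and 9.2% rose (19.6% in all). The median log2 fold change of the 79 was -1.79, a 3.46-fold fall, against -0.07 over all genes. Of 48 large-subunit genes 40 fell, with a median of -1.70 over the 48, and of 31 small-subunit genes 27 fell, with a median of -1.95 over the 31. Of the 67, 62 fell by more than 2-fold. The count was lower in other fits: 35 fell when the E18 and P4 plates were fitted alone, 43 without the first P4 plate and 42 without the second. The first E18 plate, with 2 neuron-like wells, gave a share of 3.79% in its 175 wells of the unnamed Ttr-led cluster, against 2.31% in the neuron-like wells of the second E18 plate, and without the first plate 55 genes fell and 1 rose.

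**Figure D2:**
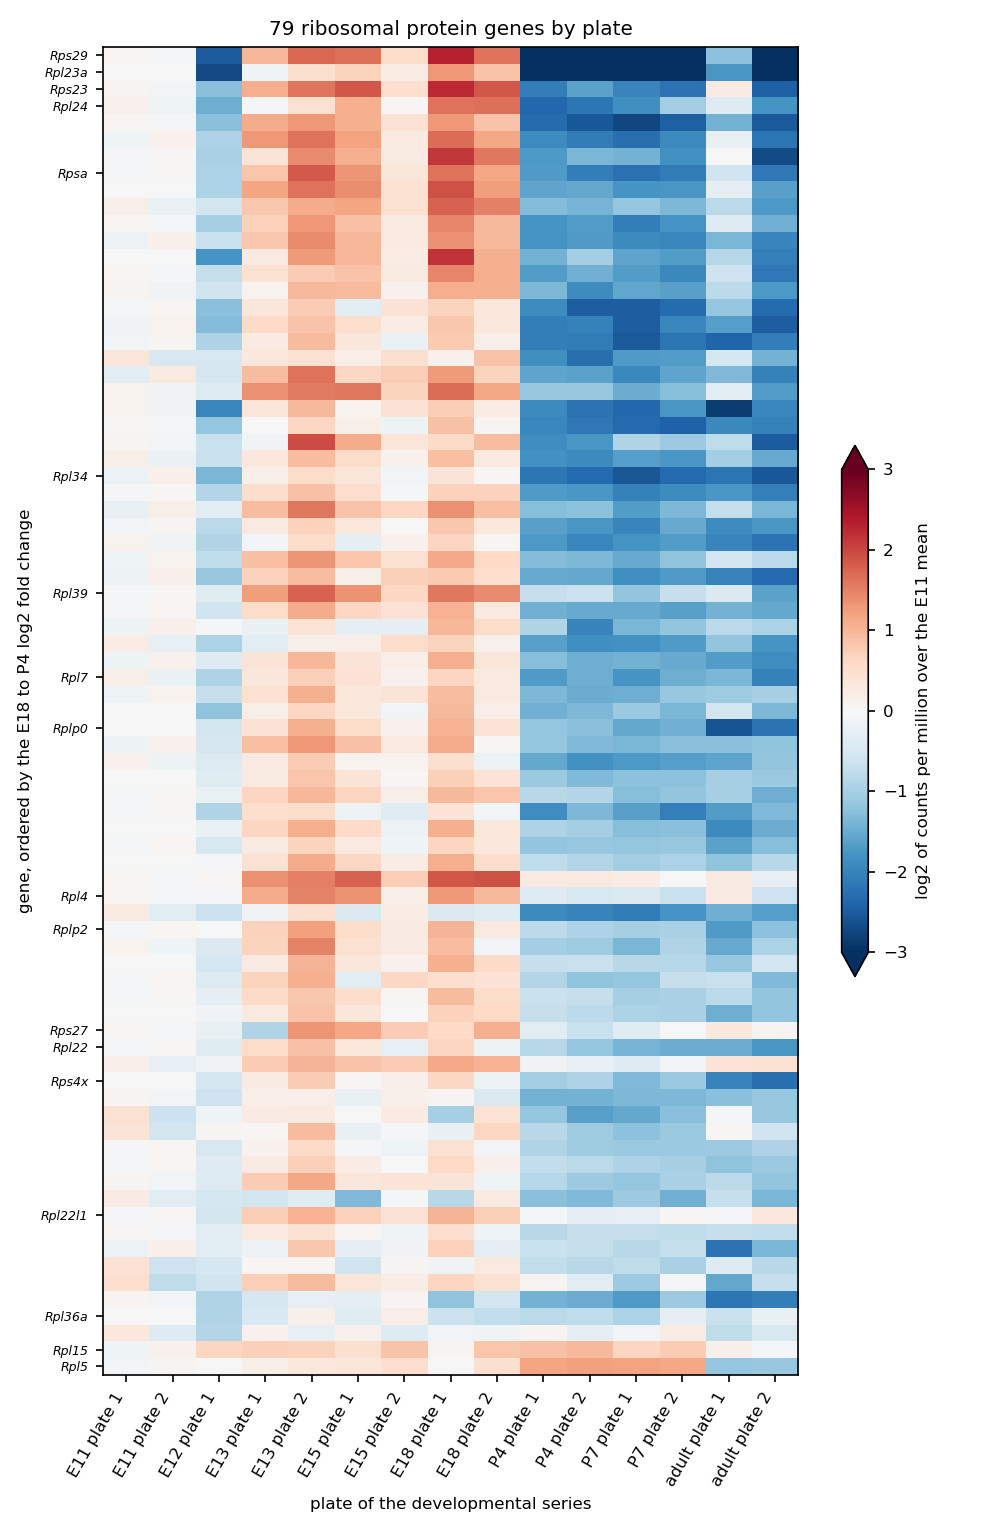
Level of each of the 79 genes (rows, ordered by the E18 to P4 fold change, with some named) on each plate of the series (columns), as the log2 of CPM over the E11 mean, with the colour scale ending at -3 and 3. Most rows turn from red on the E13, E15 and E18 plates to blue from P4 on, and the E12 column is mostly blue. Rpl5 and Rpl15 in the bottom rows stay above the E11 mean at P4 and P7. In the adult Rpl5 is blue and Rpl15 is near the E11 mean.

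The 4 largest falls were those of Rps29, Rpl23a, Rps23 and Rpl24. Rps29, a small zinc-binding protein of the small subunit, was at 536 and 334 CPM on the E18 plates and at 13.4 and 10.1 on the P4 plates. Its log2 fold change was -4.97 (SE 0.64, edgeR adjusted p = 0.00131). Rpl23a, which sits near the exit of the peptide tunnel, was at 753 and 549 at E18 and at 25.1 and 29.4 at P4, and fell by 4.34 on the log2 scale (SE 0.62). The stages did not overlap for either gene. Rps23, a protein of the decoding centre, fell by 3.66 on the log2 scale (SE 0.66), and Rpl24, which bridges the subunits, by 3.66 (SE 0.55). Rpl24 was low throughout, at 21.7 ± 0.216 CPM at E18 and 1.45 ± 0.125 at P4 (SD). It had 312 counts in the series, 48.4% of them unspliced, and an exon of Gm28037 overlaps it on the same strand.

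The genes with the steepest falls also differed between E12 and E11 and between the adult plates. Rps29 was at 19.0 CPM at E12 against 112 and 103 at E11, and at 46.1 on the first adult plate against 8.35 on the second. Rpl23a was at 47.0 at E12 against 302 and 307 at E11, and at 91.0 against 14.7 in the adult. Rpl23a, Rps23 and Rps29 were among the genes more than 5 times higher on the first than on the second adult plate, while the median gene was 1.24 times higher. Over the 66 genes with at least 1000 counts, the ratio of P4 to E18 went with the ratio of E12 to E11 (Spearman rho 0.746), as a description over genes of the same libraries. The part of plate number, mitochondrial share and depth in these patterns was not tested.

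Rpl5 was the exception that rose. Its protein carries the 5S ribosomal RNA into the large subunit and binds the p53 regulator Mdm2 when unassembled. Its level was 50.0 and 56.6 CPM at E11, 52.9 at E12, 60.2 and 65.9 at E13, 68.9 and 75.8 at E15, and 52.7 and 73.9 at E18. The P4 plates had 122 and 126, the P7 plates 123 and 120, and the adult ones 23.7 and 24.3. All 4 P4 and P7 plates thus lay above every other series plate, and both adult plates below. From E18 to P4 the log2 fold change was 1.19 (SE 0.22, edgeR adjusted p = 0.00538), and from P7 to the adult it was -2.45 (SE 0.24, edgeR adjusted p = 0.00145). The level of Rpl5 on the left, right and both-sides plates at E18, from a table made separately, was 588 CPM on average against 63.3 on the E18 plates of the series. An exon of Fam69a overlaps Rpl5 on the other strand, and no source used here gives whether counting used strand.

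The rise of Rpl5 from E18 to P4 lost its call when those stages were fitted alone and without the second P4 plate. Rpl15, a core protein of the early large subunit, was at 79.02 and 133 CPM at E18 and at 138 and 145 at P4, with an edgeR adjusted p of 0.122. The other 10 genes without a call from E18 to P4 were Rpl7a, Rpl9, Rpl10, Rpl17, Rpl27, Rpl36a, Rps2, Rps12, Rps27 and Rps27a.

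**Figure D3:**
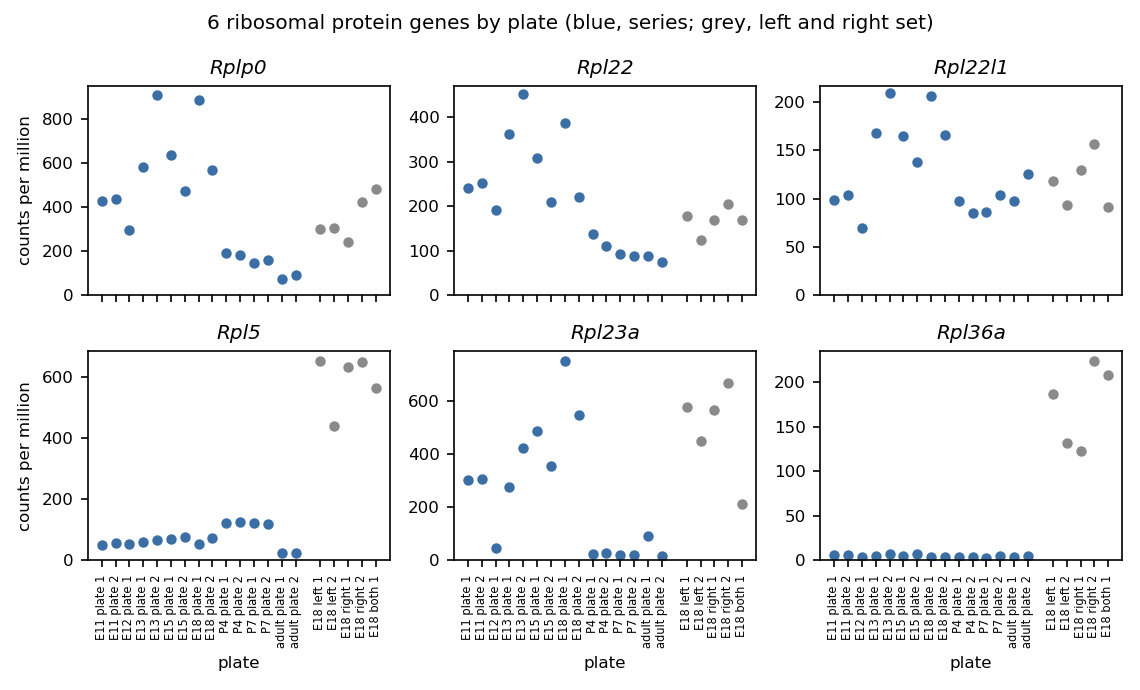
CPM (y axes, each from 0) of 6 genes by plate, with the series in blue and the left, right and both-sides set in grey. Rplp0 and Rpl22 fall after E18, Rpl22l1 less so, Rpl5 is highest in the series at P4 and P7, Rpl23a drops at E12 as well, and Rpl36a lies near 0 throughout the series but not in the second set.

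The stalk of the large subunit, built from Rplp0, Rplp1 and Rplp2, recruits the elongation factors. Rplp0 was at 425 and 434 CPM at E11, 293 at E12, 582 and 906 at E13, 634 and 470 at E15 and 882 and 567 at E18. The P4 plates had 191 and 182, the P7 plates 147 and 159, and the adult plates 71.2 and 92.3, so the last were the lowest of all. From E18 to P4 Rplp0 fell by 1.72 on the log2 scale (SE 0.26), Rplp2 by 1.33 (SE 0.26) and Rplp1 by 1.29 (SE 0.27), with edgeR adjusted p-values of 0.00233, 0.00712 and 0.00956. Rpsa, a small-subunit protein also known as a laminin receptor, fell by 3.06 (SE 0.45, edgeR adjusted p = 0.00211).

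Paralogs were described pair by pair. Rpl22, a large-subunit protein that binds RNA, fell from 304 ± 117 CPM at E18 to 124 ± 17.9 at P4 (SD, n = 2 plates each; log2 fold change -1.06, edgeR adjusted p = 0.0167). Its paralog Rpl22l1 fell from 186 ± 28.4 to 90.8 ± 8.97 (log2 fold change -0.81, edgeR adjusted p = 0.0166). The count ratio of Rpl22l1 to Rpl22 was 0.407 and 0.413 at E11, 0.364 at E12, 0.462 and 0.464 at E13, 0.533 and 0.660 at E15, and 0.532 and 0.748 at E18. The P4 ratios were 0.711 and 0.759, the P7 ratios 0.916 and 1.17, and the adult ratios 1.10 and 1.69. The ratio was not tested, and ratios of 2 genes' counts also carry what each gene's transcripts yield in 3-prime counting.

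Rps27l fell by 1.32 on the log2 scale from E18 to P4 (SE 0.31) and Rpl36al by 1.03 (SE 0.20), while their partners Rps27 and Rpl36a had no call, at 1.70 to 7.96 and 3.22 to 7.13 CPM over the series plates. Rpl7 fell by 1.83 (SE 0.26) and its paralog Rpl7l1 by 0.76 (SE 0.21). Rpl3, Rpl39, Rpl10 and Rps4x could not be set beside their paralogs, which were under the count minimum or, for Rps4l, not annotated as protein-coding.

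In the other steps of the series few genes passed. From E11 to E13 none of the 79 passed (edgeR), where 1.45% of all genes did (0.854% higher and 0.596% lower), although 72 of 79 had a fold change above 0 and the median was 0.54 against 0.02 over all genes. An unadjusted p under 0.05 was found for 32 of the 79 and for 17.8% of all genes. This count rested on the fit: DESeq2 called 16 of them higher, and edgeR called 12 without a filter on low counts and 2 from the E11 and E13 plates alone. From E13 to E15 and from E15 to E18 none passed, against 0.0917% (0.0516% higher, 0.0401% lower) and 0.195% (0.16% higher, 0.0344% lower) of all genes, with none of the 79 called by DESeq2. At an unadjusted p under 0.05 there were 3 and 2 of the 79, against 12.5% and 17.2% of all genes. From P4 to P7 none passed either, against 0.00573% of all genes, and none of the 79 had an unadjusted p under 0.05 or was called by DESeq2. From P7 to the adult Rpl5 and Rps4x fell (3.58% of all genes passed, 1.76% higher and 1.82% lower), Rps4x by 1.03 on the log2 scale (SE 0.25, edgeR adjusted p = 0.0495). Rps4x lost its call with scaling from other genes, with wells of at least 3000 counts, with the replicate number as a block, with the P7 and adult plates fitted alone and without any 1 of those plates. Without the second adult plate 7 genes rose and 1 fell in that step.

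A plate's sum mixes cell types, so the same test was run within neuron-like wells, with classes named from clusters that were made without these genes. Different clusters held most neuron-like wells at different stages: clusters with lateral habenula markers or general neuron markers at E11, and clusters with medial habenula markers at P4, P7 and in the adult. From E15 to P4, 66 of 79 fell and only Rpl5 rose, where 11.1% of the 15920 genes tested fell and 13.8% rose. The median was -1.59 against 0.06 over all genes. From E11 to P7, which compares different plates, 65 fell and 2 rose, where 21.3% of all genes fell and 23.8% rose, with a median of -1.23.

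The 4 largest neuron-like falls from E11 to P7 were those of Rpl23a, Rps29, Rpl34 and Rps15a. Rpl23a was at 274 ± 4.53 CPM at E11 and at 18.8 ± 2.17 at P7 (SD, n = 2 plates each), a fall of 3.85 on the log2 scale (SE 0.48). Rps29 fell by 3.34 (SE 0.46), Rpl34 by 2.46 (SE 0.21) and Rps15a, a small-subunit protein, by 2.41 (SE 0.30). Rpl5 rose by 1.28 (SE 0.17, edgeR adjusted p = 1.51e-05) and Rpl15 by 0.77 (SE 0.18, edgeR adjusted p = 0.00279). Rpl22 fell by 1.22 (SE 0.19), and Rpl22l1 was at 93.7 ± 8.48 and 92.4 ± 12.8 CPM, with a log2 fold change of -0.00 (SE 0.18). Rplp0 fell by 1.23 (SE 0.19), Rplp2 by 0.75 (SE 0.19) and Rplp1 by 0.59 (SE 0.19), and Rpsa by 1.78 (SE 0.34). Between these stages Rpl22l1 was not level, at 146 ± 8.69 CPM at E13, 152 ± 26.8 at E15 and 88.2 ± 10.9 at P4. It was among the genes that fell from E15 to P4.

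**Figure D4:**
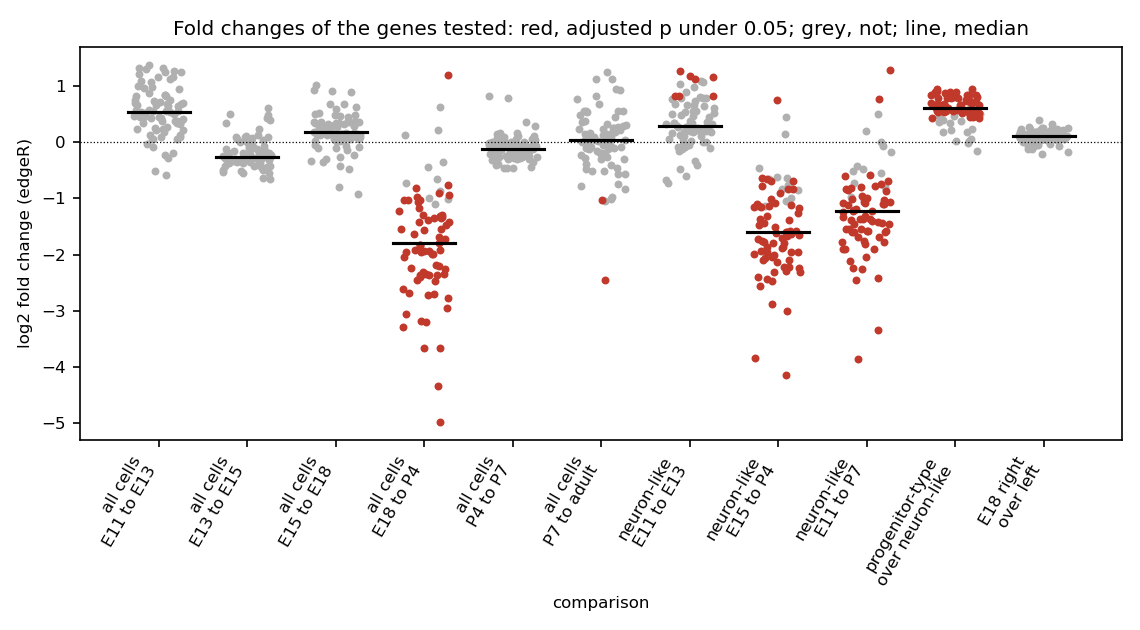
edgeR log2 fold change (y axis) of every gene of the 79 that was tested, by comparison (x axis), with called genes in red, others in grey and the median as a line. The medians lie at -1.79 for E18 to P4 in all wells and at -1.59 and -1.23 for the 2 neuron-like steps that cross birth, and at 0.61 for progenitor-type over neuron-like wells.

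Among neuron-like wells 7 genes rose from E11 to E13 (Rpsa, Rps24, Rpl39, Rpl4, Rpl13a, Rpl37a and Rps21), where 4.16% of all genes passed, 1.94% higher and 2.22% lower. The largest of these was Rpsa, at 22.4 ± 1.79 and 58.7 ± 8.49 CPM (log2 fold change 1.27, SE 0.34, edgeR adjusted p = 0.0488). Rps24, needed for maturing the small-subunit RNA, rose by 1.18 (SE 0.30), Rpl39 by 1.15 (SE 0.31) and Rpl4 by 1.12 (SE 0.29), the last 2 being proteins that line the peptide tunnel. The count moved both ways with the fit: it was 12 without a filter on low counts, 20 with wells of at least 3000 counts and 23 from the E11 and E13 plates alone. It was 0 without any 1 of the E11 and E13 plates and with coarser clusters.

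From E13 to E15 and from P4 to P7 none of the 79 passed in neuron-like wells, against 0.584% (0.421% higher, 0.163% lower) and 0.364% (0.258% higher, 0.107% lower) of all genes, with none called by DESeq2. At an unadjusted p under 0.05 there were 3 and 2 of the 79, against 10.8% and 7.11% of all genes. From P7 to the adult 3 rose (Rps25, Rpl27a and Rps21) and 4 fell (Rpl5, Rplp0, Rps2 and Rps4x), where 4.89% of all genes rose and 6.47% fell. Rpl5 fell by 2.38 (SE 0.20, edgeR adjusted p = 4.67e-06) and Rplp0 by 0.98 (SE 0.20, edgeR adjusted p = 0.00623). DESeq2 called 5 higher and 4 lower, and edgeR without the filter 8 higher and 4 lower. Leaving out 1 plate at a time gave between 1 and 18 genes in this step, the 18 (14 higher and 4 lower) without the second adult plate, when the first, with 25 neuron-like wells, stood alone and was assumed to vary like the other stages.

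Cells of different classes on the same plate were compared next. Progenitor-type wells, which joined a progenitor-like cluster led by Hist1h2ap, Top2a and Ube2c, genes of dividing cells, with intermediate progenitor-like clusters led by Cntn2, Tal2 and Tbr1, gave on summed counts a higher share than neuron-like wells on all 7 plates with at least 20 wells of each. At E11 the shares were 2.95% against 1.40% and 2.95% against 1.51%, and the E12 plate had 2.25% against 1.06%. The other pairs were 3.02% against 2.03% and 3.40% against 2.21% at E13, and 2.53% against 2.40% and 2.18% against 1.83% at E15. The mean difference was 0.976 ± 0.539 percentage points (SD, n = 7 plates), and the E15 plates had the smallest differences, 0.135 and 0.343. The name progenitor-type is a working one. The 3 intermediate clusters each had 9 of the 10 neuron markers above the non-neuronal clusters, Cntn2 and Tbr1 are also known from young postmitotic neurons, and the 10 leading genes of the Cntn2-led cluster held none of the markers that named it. That cluster gave 126 of the 138 progenitor-type wells on the first E15 plate, so the E15 values rest largely on it. With it left out, an alternative chosen after seeing the data, and with the minimum lowered to 10 wells, the second E15 plate had too few wells. The difference on the other 6 plates, of which the first E15 plate kept 12 such wells, was 1.15 ± 0.452 percentage points, above 0 on all 6. Whether the difference changed with stage was not tested.

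**Figure D5:**
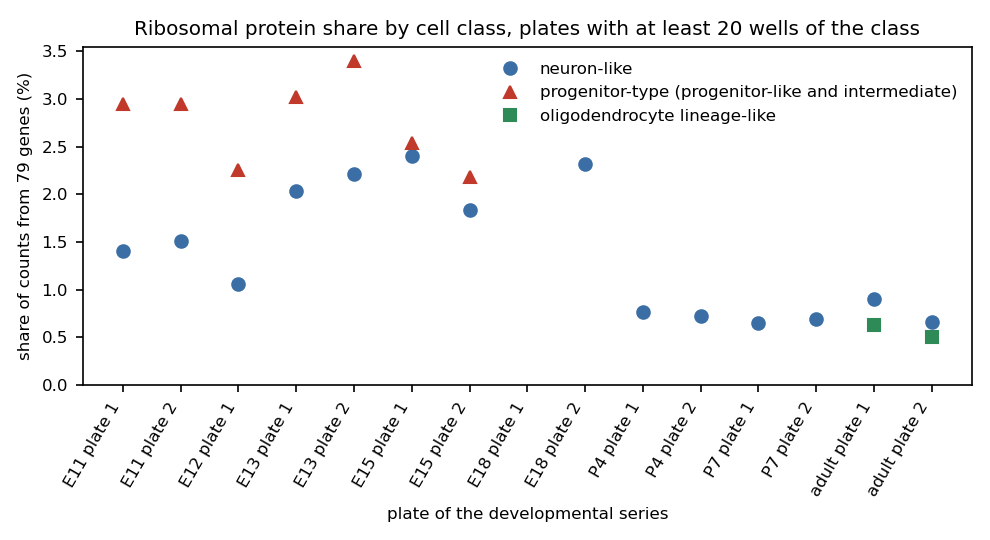
Share of counts from the 79 genes (y axis, %) in neuron-like, progenitor-type and oligodendrocyte lineage-like wells on each series plate (x axis). A class is shown where the plate held at least 20 of its wells, and other classes are not drawn. Progenitor-type wells (triangles) lie above neuron-like wells (circles) of the same plate on all 7 plates that hold both, and oligodendrocyte lineage-like wells (squares) lie below them on both adult plates.

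Progenitor-type wells had fewer counts each than neuron-like wells on the E11, E12 and E13 plates, with medians of 11512 against 17116 on the first E11 plate and 8976 against 14979 at E12. At E15 they had more, with medians of 9802 against 7747 on the first plate, and the part of depth in the difference was not tested. On the first E11 plate the share was 4.13% in the progenitor-like cluster and 2.28% in the intermediate progenitor-like clusters. On the second it was 4.24% and 2.66%, at E12 2.79% and 1.80%, and on the second E13 plate 4.87% and 2.89%. The progenitor-like cluster was thus the higher on each of the 4 plates that held at least 10 of its wells.

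Of the 79 genes, 72 passed the filter on low counts in this comparison and 56 were higher in progenitor-type wells, none lower, where 11.9% of the 9262 genes tested were higher and 12.2% lower (edgeR with the plate as a block). The median log2 fold change of the 72 was 0.61 against 0.02 over all genes. It was 0.54 over 45 large-subunit genes and 0.70 over 27 small-subunit genes. The number was 28 without the block, and with the progenitor-like cluster alone, an alternative chosen after seeing the data, 60 of 66 genes were higher with a median of 1.26. With the Cntn2-led cluster left out, 54 of 71 were higher and none lower, with a median of 0.70.

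The stalk genes were among those with the largest differences. Rplp0 was at 754 ± 135 CPM in progenitor-type and at 390 ± 84.8 in neuron-like wells (SD, n = 7 plates), higher on 7 of 7 plates, by 0.95 on the log2 scale (SE 0.14, edgeR adjusted p = 8.2e-04). Rplp1 was higher by 0.94 (SE 0.15) and Rps20, of the small-subunit head, by 0.89 (SE 0.17), each on 7 of 7 plates. Rplp2 was higher by 0.83 (SE 0.16), Rpsa by 0.79 (SE 0.22) and Rps27l by 0.81 (SE 0.21), on 6, 6 and 5 of 7 plates. Rpl22 was higher by 0.88 (SE 0.17, edgeR adjusted p = 0.00389) on 6 of 7 plates, and Rpl22l1, at 160 ± 20.0 and 120 ± 40.1 CPM, differed by 0.47 on the log2 scale (SE 0.17) with an edgeR adjusted p of 0.0607. Rpl7 was higher by 0.57 (SE 0.11), and Rpl7l1 had 0.39 (SE 0.16, edgeR adjusted p = 0.0911), above 0 on 5 of 7 plates. Whether paralogs of a pair differed was not tested. Rpl5 and Rpl15, the genes that rose from E11 to P7 in neuron-like wells, had log2 fold changes of 0.05 (SE 0.14) and -0.15 (SE 0.14) without a call.

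Fixed lists of other genes of the translation machinery were counted in the same fits. Fau and Rack1, ribosomal proteins whose symbols lie outside the pattern, fell from E18 to P4, Fau by 2.02 and Rack1 by 1.19 on the log2 scale, and Rack1 was higher in progenitor-type wells. Of 8 elongation factors 3 fell and 2 rose from E18 to P4, where 10.4% of all genes fell and 9.2% rose. Eef1g fell by 1.44 (SE 0.21), and Eef1a2, the elongation factor form of mature neurons and muscle, rose by 3.52 (SE 0.84). Of 24 initiation factors 4 fell and 1 rose, with a median of -0.15 against -0.07 over all genes. Of 11 other transcripts known to begin with a pyrimidine tract, a list that includes the non-coding Gas5 and Snhg genes, 3 fell, Tpt1 by 1.43 (SE 0.33). None of 22 nucleolar assembly factors passed in that step. Of 76 mitochondrial ribosomal protein genes tested, Mrps28 fell by 1.03 and Mrps9 rose by 0.88, and their median was -0.08, against -1.79 for the cytosolic genes.

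Between progenitor-type and neuron-like wells, 8 of the 11 other pyrimidine-tract transcripts were higher and none lower, led by Vim. Vim is an intermediate filament gene that is also in the list of progenitor markers used to name the classes. Among nucleolar assembly factors 5 of 21 tested were higher, led by Dkc1 with 0.77 (SE 0.18). Of 75 mitochondrial ribosomal protein genes 5 were higher, where 11.9% of all genes were, and their median was 0.11 against 0.02 over all genes. Neither difference was tested. Eef1a2 was lower by 2.16 (SE 0.31).

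On the adult plates oligodendrocyte lineage-like wells gave 0.626% and 0.506% of counts from these genes, and neuron-like wells 0.898% and 0.658%. Of the 79 genes 59 passed the filter, 1 was higher and 5 lower in oligodendrocyte lineage-like wells, where 26.3% of 8755 genes differed, 14.1% higher and 12.2% lower (edgeR, plate as a block). Rpl22 was higher, at 128 ± 3.07 against 65.7 ± 9.29 CPM (SD, n = 2 plates; log2 fold change 1.11, edgeR adjusted p = 0.0277). Rpl27a, Rpl15, Rpl13a and Rpl3 were among the lower ones, Rpl27a by 1.72 (SE 0.62) and Rpl15 by 1.63 (SE 0.53). DESeq2 and the fit without the block called none, and 84 oligodendrocyte lineage-like wells in all stood behind these values, 20 of them on the first plate.

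Left and right habenula were compared at E18. None of the 79 genes differed (edgeR), as none of the 15489 genes tested did, so the share of genes called was 0%, and none of the 79 had an unadjusted p under 0.05. DESeq2 called none of the 79 either. The share was 2.08% and 2.01% on the left plates and 1.76% and 2.83% on the right ones. The single plate of both sides had 2.08% (95% Wilson interval 2.06% to 2.09%, for counting error only). The right plates thus enclosed the left ones. The median log2 fold change of right over left was 0.11, and it was -0.33 without the second right plate and 0.47 without the first. Summed hemoglobin and other erythroid markers were 19048 and 17220 CPM on the left and 3410 and 266 on the right, and their part in the values was not tested.

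The E18 plates of the 2 sets differed for some of the genes by far more than the total share did. The tables were made separately, from different mouse lines, so their values are set side by side without a test. Of the 79 genes, 17 were in the series at E18 at under 0.25 of the second set's level, 7 of them at under 0.1, and 47 were higher in the series. Rps27a was at 5.63 against 318 CPM, Rpl36a, which contacts the exit-site transfer RNA, at 3.88 against 175, Rps12 at 8.33 against 344 and Rps27 at 5.78 against 154. In the other direction Rpl35a was at 316 against 89.96 and Rps15a at 534 against 157. The median number of pseudogene copies was 16 for the 17 genes and 9 for the others, with ranges of 5 to 93 and 0 to 65, so the ranges overlapped, and the part of multiply mapping reads was not tested. Low levels in the series of Rps27, Rps27a, Rps12, Rpl36a, Rpl9, Rpl10, Rpl27 and Rpl24 limit what the stage tests can show for these genes.

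Unspliced counts were deposited as a separate table. They are part of the total counts on which the minimum of 200 was set, and Rps27, Rps27a and Rpl24, with 11.5%, 22.4% and 48.4% of their series counts unspliced, passed it only with them. They made up 2.25% ± 0.363 of the 79 genes' counts over the 15 series plates and 1.59% ± 0.411 over the other 5 (SD), against 19.7% to 29.5% and 24.2% to 31.2% for all other genes. By stage the unspliced share of the 79 was 2.09% ± 0.129 at E11, 1.55% at E12, 2.54% ± 0.122 at E13, 2.69% ± 0.445 at E15 and 2.59% ± 0.173 at E18. Later plates had 2.03% ± 0.0907 (P4), 2.12% ± 0.113 (P7) and 2.01% ± 0.0986 (adult). The stages with the higher share of counts from these genes, E13 to E18, thus also had the higher unspliced share within them. The median gene gave another order, with 1.51% ± 0.174 unspliced at E11, 1.24% at E12, 0.893% ± 0.159 at E13, 0.967% ± 0.329 at E15 and 0.635% ± 0.0386 at E18. Its later values were 1.95% ± 0.204 (P4), 1.79% ± 0.251 (P7) and 0.758% ± 1.07 (adult), so P4 and P7 were the highest and the adult plates spread widely. No difference in unspliced share was tested. Large-subunit genes took 56.6% to 63.8% of the 79 genes' counts on the series plates and 58.8% to 61.0% in the second set.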

How the data were processed

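The deposited tables hold expected counts, that is UMI numbers per gene and well that the authors corrected for UMI collisions, per the values, which all return to whole UMI numbers (within 1e-06) when the correction for 4096 UMIs is inverted. Reads were aligned to mm10 with STAR 2.5.3a after Trim Galore, per the submitters' processing notes. No source used here gives the counting program or its use of strand. GENCODE M21 and RefSeq gave positions.

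Wells with at least 1000 counts outside spike-ins and mitochondrial genes, 500 genes and at most 20% mitochondrial counts were kept. Well labels are the same 384 positions on every plate and cannot show shared cells, and no doublet caller was run. Expected counts were summed per plate (or plate and class), rounded and tested with edgeR 4.0.16 (filterByExpr, TMM, quasi-likelihood, Benjamini-Hochberg over all genes tested); all stages shared 1 fit. SE is the log2 fold change over the root of F. DESeq2 1.42.0 was an alternative. CPM values are counts scaled to the same total on each plate and averaged over plates. Of the fits, only the edgeR fit of all wells was run on simulated counts, for the E18 to P4 step.

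Wells were clustered with scanpy 1.11.5 without the genes studied and their pseudogenes (2000 variable genes, 30 components, 15 neighbours, Leiden resolution 1). A cluster took a class from at least 3 markers at 2-fold over other wells, each seen in at least 20% of its wells. A cluster left without a class was also neuron-like where at least 5 of 10 neuron markers were 2-fold above the named non-neuronal clusters. Intermediate progenitor-like clusters were left out of that base. Clusters with 3 such markers of a non-neuronal list, or any among their 10 leading genes, were not eligible. This rule was chosen after seeing the data. Pseudogene copies were annotated pseudogenes matched by blastn 2.17.0 (90% identity, 50% of length). Genes named were the 4 largest rises and falls past an adjusted p of 0.05, the paralog pairs, the stalk genes with Rpsa, and the top gene of each pathway list. Some genes that this rule names are not reported here. The genes and lists were chosen with earlier results of these data known. Replicate numbers were not taken as pairs: over 21 pairs of series groups, same-numbered plates' deviations correlated between -0.37 and 0.26, with 4 above 0.1, and the 1 left and right pair gave 0.22.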

Additional observations from a re-analysis of the deposited data

Results flagged for a closer look

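Rps6, which encodes the small-subunit protein phosphorylated by the S6 kinases, missed the count minimum in the developmental series with 147 counts, yet had 6178 counts over the kept wells of the left, right and both-sides plates. It was at 189 and 187 CPM on the left plates, 147 and 278 on the right and 445 on the plate of both sides. Rpl29 likewise had 122 counts in the series and 370 in the second set, at 5.43 to 32.8 CPM. Both lay outside the 79 genes described, and their values are in none of the counts given for them.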

How the results depend on the processing

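Of the recomputed counts and shares, 214 kept their direction and size, 20 were weaker, 9 were stronger, 7 moved and 4 reversed, and those that changed follow. The directions of all 464 recomputed fold changes of named genes held, and 70 of them lost the threshold. These genes were picked for large changes past the threshold on the same plates, so kept directions were likely from the start. The fall from E18 to P4 passed for 35 genes when those stages were fitted alone, and 42 to 68 with 1 plate left out. From E11 to E13 in all wells the count was 16 with DESeq2, 12 without the low-count filter and 2 from the stages alone, and from E15 to E18 it was 1 without the filter. From P7 to the adult it was 5 without the filter, and 1 each with scaling from other genes, with wells of at least 3000 counts and with the replicate block, with a range of 1 to 8 when 1 plate was left out, the 8, mostly higher, without the second adult plate. In neuron-like wells from E11 to E13 it was 12 without the filter, 20 with wells of at least 3000 counts, 23 from the stages alone and 0 with clusters at resolution 0.5 or without any 1 of the plates. From P4 to P7 it was 2 from the stages alone. From P7 to the adult it was 9 with DESeq2 and 12 without the filter, in both cases with more genes higher than lower (5 against 4 and 8 against 4), 1 from the stages alone and 1 to 18 with 1 plate left out; wells of at least 3000 counts left no value, since an adult plate then held too few wells. With 1 plate left out, 51 to 60 genes passed from E11 to P7 and 46 to 65 from E15 to P4, against 67 each. Progenitor-type against neuron-like wells gave 28 genes without the plate as a block and 41 to 59 with 1 plate left out. DESeq2, over more genes, put the median of all genes there at 0.43 and called 52 of the 79 higher. In the adult comparison, where its median of all genes was 0.34, DESeq2 and the fit without the block gave 0, and leaving out a plate left no test. The replicate number as a block changed no other call count by over 1.5 times. The cause of these changes was not tested.

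Pseudogene rows added to the genes' counts raised the E11 to E18 share from 2.32% to 2.91%, the P4 to adult share from 0.736% to 0.865% and that of the second set from 2.15% to 2.60%. The mean of wells gave 2.57% from E11 to E18, 0.812% from P4 on and 2.35% in the second set. Without the 17 genes low in the series, chosen after seeing the data, the second set gave 1.70%. Neuron-like wells of 8000 to 16000 counts, also chosen after seeing the data, gave 0.778% from P4 on against 0.698% over all depths. With 1 plate left out the embryonic share ranged from 2.18% to 2.46%, the later one from 0.722% to 0.753%, the second set from 1.98% to 2.25% and the class difference from 0.881 to 1.12 percentage points. The median over genes of the unspliced share was 1.22% in the series and 0.456% in the second set, and leaving out plates gave 2.19% to 2.30% and 1.45% to 1.68%.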
